A study of Ovis aries with 2 samples.

Results

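On the sheep Y-chromosome, 10503 of 369530 CpG sites had Oxford Nanopore (ONT) methylation levels that differed between the plus and the minus strand by at least 40 percentage points. This was 2.84% of the sites with 20 or more calls on each strand, and another 3360 of the 372890 CpG sites had fewer calls and could not enter. The sites were chosen by the ONT strand difference itself, so that difference is given as a description and no test was run on it. The DNA came from lung of 1 Churro x Friesian F1 sheep fetus at 100 days of gestation. Each level therefore averages over the cell types of a tissue. The DNA was read once on the ONT platform and once with PacBio HiFi reads, so that each platform is 1 library and no replicate spread between animals exists. Coordinates count from 1 on the Y-chromosome of the assembly ARS-UI_Ramb_v3.0, and a site is named by the cytosine of its plus strand. The cytosine of the minus strand lies 1 bp later.

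A CpG reads the same on both strands, so each strand carries a cytosine that can be methylated. After replication the new strand is unmethylated, and the maintenance methyltransferase DNMT1 copies the mark from the old strand, which keeps most CpG sites alike on both strands. A site that is methylated on 1 strand is called hemimethylated. Nanopore sequencing reads each strand on its own, and its deposited values keep the strands apart. The PacBio values combine both strands of a CpG into 1 percentage, so no second measurement of the strand difference was at hand, and whether the strands of the DNA itself differed was not tested.

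An ONT call counted as methylated when its probability passed the authors' upper threshold of 80% and as unmethylated when it was under the lower threshold of 20%. The level of a strand is the share of methylated calls among these. Calls between the thresholds are left out. The remaining reads over the position had no usable call, because they carried another base, a deletion, no call or another modification, which the values do not separate. Reads of either group enter no level, so they bear on which sites had enough calls and on the level each strand was given, but the limit of 40 points was not set on them. They are given below as the between share, out of all calls, and the no-call share, out of all reads of that strand.

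Neither strand was much the more frequent one. The plus strand was higher at 5452 sites, 1.48% of those with enough calls, and the minus strand at 5051, 1.37%. The plus strand thus was higher in 51.9% of the strand-asymmetric sites (95% Wilson interval 51.0 to 52.9, counting error only). The median size of the difference was 47.2 points, with 1192 sites at 60 points or more, 296 at 70 or more and 36 at 80 or more. On the higher strand the median level was 82.0%, and on the lower strand 31.8%. Over all 369530 sites the plus strand was 0.455 points above the minus strand as a median, with a SD of 15.5 points between sites.

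**Figure D1:**
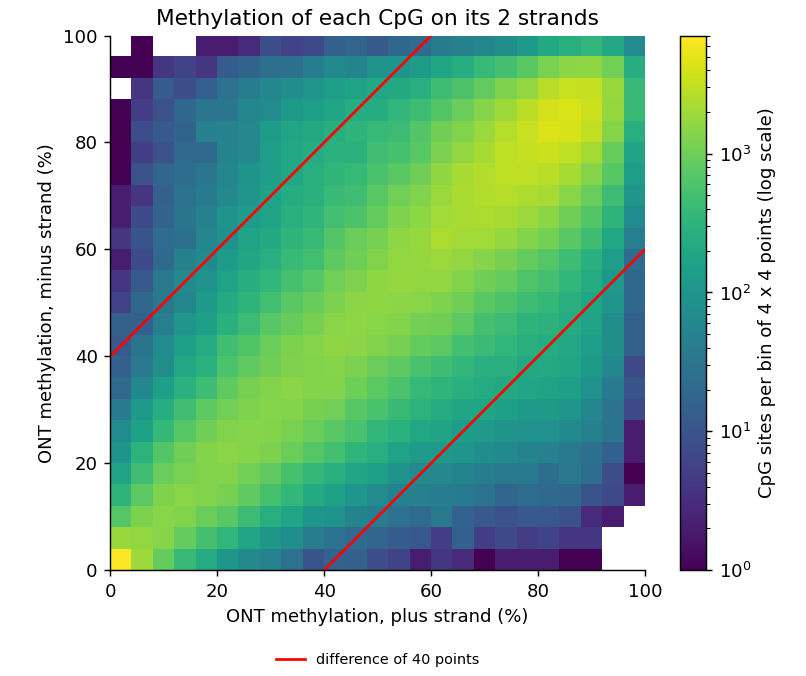
ONT methylation of each CpG site with at least 20 calls per strand, plus strand on the x axis and minus strand on the y axis, both in percent, with the number of sites per bin as colour on a log scale. The red lines mark a difference of 40 points, and the 10503 sites beyond them lie on both sides of the diagonal in similar numbers, 5452 below it and 5051 above it.

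The sites were unevenly placed. The pseudoautosomal region (PAR), which pairs and recombines with the X-chromosome and ends at 7018329, held 7396 of them, 4.81% of its 153649 sites with enough calls. The centromeric array, from 8038393 to 8159156, held 205, which was 2.08% of 9864. The rest, which is the male-specific region without the array, held 2902, which was 1.41% of 206017. In each place both directions occurred, with the plus strand higher in 51.4% of the sites of the PAR, 50.2% in the array and 53.3% in the rest.

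Read depth also differed between the places. The median number of reads per strand was 112 and 113 in the PAR, 37 and 39 in the array, and 57 and 58 in the rest. With a minimum of 50 calls per strand, a setting chosen after seeing the data, 2.77% of 140037 sites of the PAR and 0.520% of 23826 sites of the rest were strand-asymmetric, and no site of the array had enough calls. This minimum acts on usable calls, which were fewer on 1 strand of many strand-asymmetric sites, so it does not match the places for depth. Within the PAR the frequency ranged from 2.13% to 6.01% over 15 blocks of 500 kb. In the rest it ranged from 0.835% to 3.46% over 38 blocks. Whether the X-chromosome was part of the alignment target is not given in the sources used here, so in the PAR reads of the X-linked and the Y-linked copy cannot be told apart.

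The 10 sites with the largest difference all lay in the PAR, with the minus strand higher at 8 of them. They differed by 84.7 to 90.8 points. At position 834139, which had the largest difference, 3 of 49 calls of the plus strand were methylated (6.12%, 95% Wilson interval 2.10 to 16.5) against 96 of 99 calls of the minus strand (97.0%, 91.5 to 99.0). The PacBio level there was 91.8% over 57 reads. On the plus strand another 38 calls fell between the thresholds, a between share of 43.7%, against 12 calls or 10.8% on the minus strand.

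This pattern, with many uncertain calls on the lower strand and a PacBio level near that of the higher strand, recurred at 7 of the 10 sites. At 944218 the plus strand had 1 methylated call of 42 and the minus strand 74 of 80, with 57.6% of the plus strand calls between the thresholds and a PacBio level of 96.7%. At 201731 the strands were exchanged, with 76 of 80 calls methylated on the plus strand (95%, 87.8 to 98.04) and 4 of 50 on the minus strand (8%, 3.15 to 18.8). There the between share was 49.0% on the minus strand and 13.98% on the plus strand, and the PacBio level was 94.5%. The sites at 1105071, 1598258, 130901 and 832644 also had the minus strand higher, with between shares of 42.4% to 53.0% on the plus strand and PacBio levels of 80.7% to 95.8%.

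A different pattern was seen at 2 of the 10 sites. At 1755269, 4 of 88 calls were methylated on the plus strand (4.55%, 1.78 to 11.1) and 53 of 56 on the minus strand (94.6%, 85.4 to 98.2). Here the higher strand was the one with few usable calls, with a no-call share of 53.2% against 3.48% on the plus strand, and the PacBio level was 50.3%. At 6239217 the plus strand had 2 methylated calls of 66 and the minus strand 43 of 49, with a no-call share of 43.2% on the minus strand and a PacBio level of 53.8%. The site at 492848 had 93 of 104 calls methylated on the plus strand and 2 of 52 on the minus strand. Its between share of 49.5% on the minus strand was like that of the first pattern. Its PacBio level of 54.1% over 32 reads was like that of the second. The no-call shares were low there, with 10.4% on the plus strand and 11.2% on the minus strand.

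Outside the PAR the largest differences were smaller. In the rest the largest differences were at 7205396, with 1 of 30 calls methylated on the plus strand and 35 of 42 on the minus strand, and at 10157008, with 35 of 41 on the plus strand and 3 of 35 on the minus strand. Their lower strands had between shares of 55.9% and 45.3%, and their PacBio levels were 95.9% and 85.8%. In the array the largest were at 8072792, with 5 of 20 calls methylated on the plus strand (25%, 11.2 to 46.9) and 32 of 33 on the minus strand (97.0%, 84.7 to 99.5), and at 8052227, with 24 of 29 on the plus strand and 5 of 21 on the minus strand. The intervals of both strands are wide in the array, where the sites had a median of 29 calls on the higher strand and 25 on the lower strand.

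At the limit itself, 37 sites differed by exactly 40 points, counted in whole numbers without a tolerance. The 3 of them with most calls were at 4977413, 11873018 and 21240504. At 4977413, for example, 33 of 45 calls were methylated on the plus strand and 33 of 99 on the minus strand. The 3 sites just outside it, at 595559, 4563561 and 253246, differed by 39.99 to 39.996 points. At 4563561, 95 of 98 calls were methylated on the plus strand and 41 of 72 on the minus strand.

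Both patterns seen at the largest differences were counted over all strand-asymmetric sites. With a no-call share of at least 30% on the higher strand as the limit, which was set after seeing the data, 4057 sites were high no-call sites and 6446 were low no-call sites. In the PAR these were 3806 and 3590 sites, and in the rest 251 and 2651. In the array no site was a high no-call site. Of the low no-call sites, 93.7% had a larger between share on the lower strand than on the higher strand. Sites with less than 30% for both the no-call share of the higher strand and the between share of the lower strand were 5.57% in the PAR, 29.5% in the rest and 63.4% in the array.

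**Figure D2:**
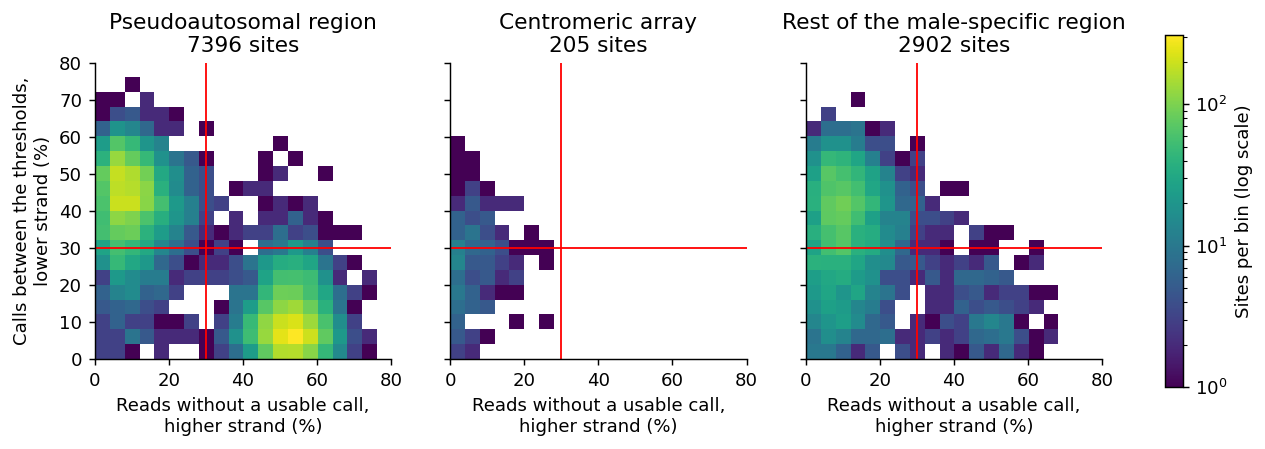
Strand-asymmetric CpG sites by the no-call share of their higher strand (x axis, percent of reads) and the between share of their lower strand (y axis, percent of calls), for the PAR, the array and the rest, with the number of sites per bin as colour on a log scale. The red lines mark 30% on each axis. In the PAR 3713 sites lie at the lower right and 3178 at the upper left, while 93 exceed both limits and 412 exceed neither.

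At the high no-call sites of the PAR, the median no-call share was 52.8% on the higher strand (quartiles 48.8 and 56.5) and 9.16% on the lower strand. Reads over the position were as many on both strands, with medians of 112 and 112.5, and it was the usable calls that differed, with medians of 46 and 90. The between share was 11.4% on the higher strand and 9.09% on the lower strand. Methylation had a median of 82.2% on the higher strand and 32.1% on the lower strand. The lower level rested on more calls than the higher one.

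Taken from the other side, the PAR held 14313 sites with a high no-call share on exactly 1 strand, of which 26.7% were strand-asymmetric. Where they were, the strand with the high no-call share was the higher strand in 96.8% (3699 of 3822). Over all 14313 sites that strand was 23.1 points above the other as a median. Of the 137450 sites of the PAR with a low no-call share on both strands, 2.52% were strand-asymmetric, and of the 1886 with a high share on both strands, 5.67%. In the rest, 3.93% of 9077 sites with a high no-call share on exactly 1 strand were strand-asymmetric, against 1.29% of those with a low share on both strands. That strand was the higher one at 240 of these 357 sites, and over all 9077 its median difference from the other strand was -1 point.

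At the low no-call sites the between share was larger on the lower strand. In the PAR the median between share was 43.5% on the lower strand (quartiles 36.9 and 49.5) and 10.6% on the higher strand, beside 13.04% and 12.4% on the plus and the minus strand of the other sites. No-call shares were 8.70% on the higher and 11.6% on the lower strand. In the rest the between share was 37.0% on the lower strand and 10.4% on the higher strand, beside 10.8% and 10.3% at the other sites. In the array the contrast was smaller, with 25.9% on the lower strand and 15.9% on the higher strand, beside 17.2% and 15.4% at the other sites. This direction depends on how the calls between the thresholds are treated when sites are chosen. Over all places and both kinds the median between share was 29.4% on the lower strand and 10.9% on the higher strand, but with these calls counted as methylated 4360 sites were strand-asymmetric, with 7.07% on the lower strand, 14.3% on the higher strand and a mean PacBio level of 48.8%.

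A high between share by itself was also associated with the lower level. The PAR held 25303 sites with a between share of at least 30% on exactly 1 strand and low no-call shares, of which 12.2% were strand-asymmetric, and the strand with the high between share was the higher one at 7 of these 3083 sites. Over all 25303 sites the median difference of that strand from the other was -17.7 points. Where both shares were low on both strands, 0.314% of 111205 sites were strand-asymmetric in the PAR and 0.425% of 169421 sites in the rest. In the array it was 1.45% of 8137 such sites, nearer to the 2.08% of all its sites. In the rest, 6.65% of 26308 sites with a between share of at least 30% on exactly 1 strand were strand-asymmetric, and 7.85% of 828 sites with such a share on both strands. In the PAR the latter value was 3.72% of 942.

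The PacBio level, which the choice of sites did not use, differed between both kinds. In the PAR its median was 50.5% at the high no-call sites (quartiles 46.7 and 54.0) and 91.1% at the low no-call sites (84.0 and 94.0), beside 87.6% at the other sites. Of the high no-call sites of the PAR, 84.2% had a PacBio level from 40% to 60%, against 3.93% of the low no-call sites. Of the latter, 82.3% had a level from 80% to 100%. In the rest the medians were 57.1% and 77.8%, beside 59.2% at the other sites. In the array the median was 66.1%, beside 73.9% at the other sites, with a median of 14 PacBio reads per site.

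The comparison was repeated against sites with the same ONT level when both strands are added up. Among sites of the PAR with 50% to 60% on both strands together, the PacBio level was 52.4% ± 7.93 (SD between sites) at 1495 high no-call sites, 83.3% ± 11.1 at 782 low no-call sites and 67.4% ± 15.0 at 12967 other sites. In this range the high no-call sites differed from the other sites by -15.0 points and the low no-call sites by 15.8 points on PacBio. The differences changed with the range. For high no-call sites of the PAR they were 0.790 points at 30% to 40%, -5.92 at 40% to 50% and -23.5 at 60% to 70%. For low no-call sites of the PAR they were 16.5 points at 40% to 50%, 9.95 at 60% to 70%, 4.45 at 70% to 80% and -0.180 at 80% to 90%. In the rest, for the same range, 98 high no-call sites had 59.2% ± 12.6, 702 low no-call sites 74.0% ± 13.8 and 26925 other sites 64.7% ± 15.3. There the high no-call sites lay above the other sites at 30% to 40%, by 6.93 points, and at 40% to 50%, by 2.31 points, while the low no-call sites lay above them by 3.28 to 9.89 points in the ranges from 30% to 90%. In the array, from 50% to 60%, low no-call sites and other sites differed by 3.61 points, with 63.6% ± 24.3 and 59.96% ± 19.9.

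**Figure D3:**
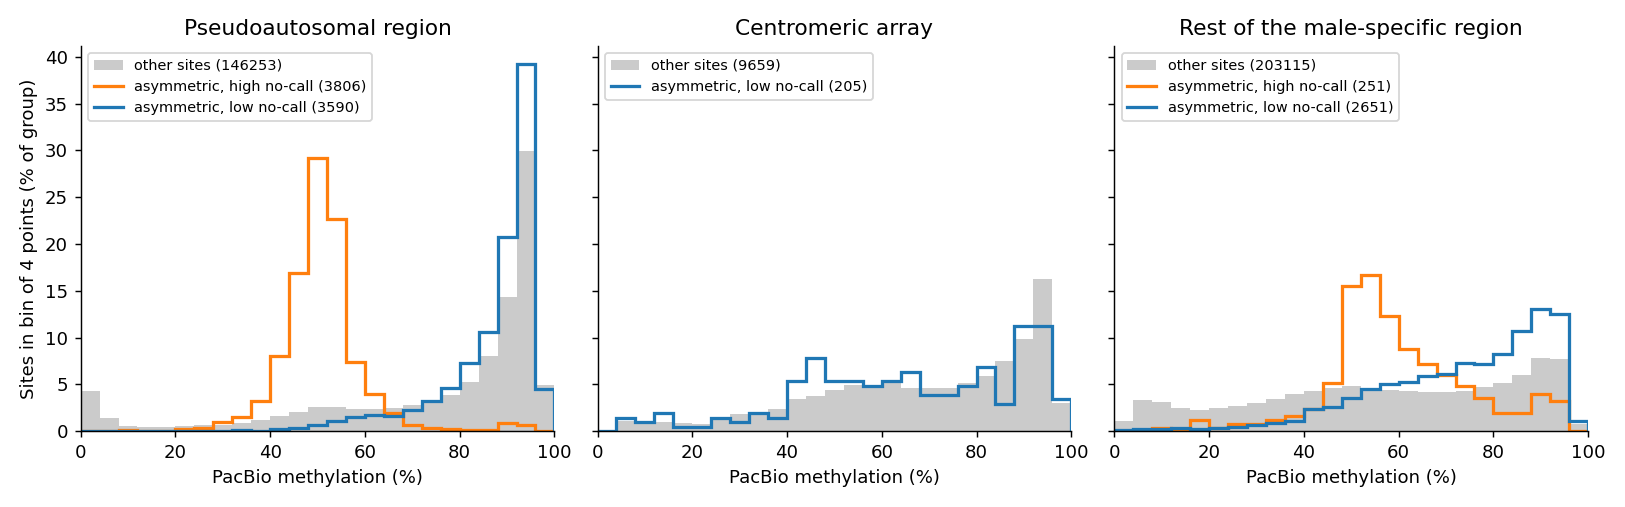
PacBio methylation in percent (x axis) at strand-asymmetric sites with a high or a low no-call share on the higher strand and at the other sites with enough ONT calls, as the percentage of each group per bin of 4 points (y axis), for the PAR, the array and the rest. In the PAR the high no-call sites peak near their median of 50.5% and the low no-call sites near theirs of 91.1%.

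The level around the sites was compared with each strand as a description, since the levels of both strands chose the sites. The mean ONT level of the other sites within 250 bp had a median of 73.6% in the PAR, where the higher strand lay 9.65 points above its surroundings and the lower strand -40.03 points from them. In the rest the surroundings had 55.5%, and the strands lay 19.8 points above and -27.6 points from them. In the array, the values were 66.8%, 15.7 and -29.7 points. Surroundings at these levels leave more room below than above, and the part of this in the values was not tested.

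The distances between the sites differed with the place. In the PAR 31.5% had another strand-asymmetric site within 100 bp, and of the other sites with enough calls 20.1% had one. In the CpG-dense array the shares were 38.0% and 27.2%, and in the rest 8.41% and 4.74%. The median distance to the next one was 483 bp in the PAR, 391 bp in the array and 3433 bp in the rest, where any site with enough calls was followed by the next after 24, 7 and 48 bp. The CpG directly after a strand-asymmetric site was also strand-asymmetric in 9.91% of cases in the PAR, 5.85% in the array and 2.45% in the rest, above the frequency of all sites in each place. Sites this close share reads and are not independent.

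The direction of neighbouring sites was compared next. Of 1503 neighbouring pairs within 100 bp, 65.5% had the same strand higher, and of 186 pairs within 10 bp, 75.8%. For neighbouring pairs of all sites with enough calls within 100 bp, the sign of the difference was the same in 54.9%. By place, the shares within 100 bp were 65.2% of 1332 pairs in the PAR, 76.7% of 129 pairs in the rest and 42.9% of 42 pairs in the array, beside 55.0%, 54.7% and 58.6% for all sites. In the array the share was lower than that of all sites, but all 9 pairs within 10 bp had the same strand higher there. Most sites stood alone, since at a distance of 100 bp 7853 sites had no companion. Of 23 clusters with 5 or more sites, 11 had the same strand higher throughout.

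The largest cluster lay in the PAR, from 5318852 to 5319504, with 13 strand-asymmetric sites among 34. The minus strand was higher at all 13. Their levels ranged from 10% to 39.1% on the plus strand and from 65.6% to 81.1% on the minus strand, so that the strands did not overlap. At 5319290, the site with the largest difference of the cluster, 4 of 40 calls were methylated on the plus strand (10%, 3.96 to 23.1) and 69 of 92 on the minus strand (75%, 65.3 to 82.7). At 5319318, with the smallest, 18 of 53 calls were methylated on the plus strand and 63 of 84 on the minus strand.

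The other 11 sites of the cluster, at 5318852, 5318880, 5318936, 5319020, 5319076, 5319104, 5319160, 5319206, 5319364, 5319420 and 5319504, differed by -41.8 to -59.8 points. The between share of all 13 was 27.8% to 54.0% on the plus strand and 4.17% to 17.0% on the minus strand, with no-call shares of at most 14.3% on either strand. Their PacBio levels were 79.1% to 96.1%. Of the 12 gaps between them, 10 were 28, 56 or 84 bp long, which are multiples of 28 bp, and the other 2 were 46 bp long. The 21 other sites within the cluster had the same sign throughout but smaller differences, from -5.41 to -39.8 points, and a median between share of 19.3% on the plus strand.

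The next clusters held 10 sites from 130078 to 130360, with the minus strand higher at all of them and a median difference of -74.2 points, and 9 sites from 1237179 to 1237421, with the plus strand higher at all of them and a median of 63.3 points. In the latter, these 9 were all the sites with enough calls. Both clusters were of the low no-call kind, with PacBio medians of 94.4% and 96.4%. Of the 3 clusters with 7 sites, those that begin at 94103 and 3863707 were of the high no-call kind, with median no-call shares of 55.4% and 43.9% on the higher strand and PacBio medians of 65.0% and 65.1%. The third, which begins at 6954057, was of the low no-call kind, with a median between share of 40.6% on the lower strand and a PacBio median of 94.3%. In each of these 6 clusters the same strand was higher throughout.

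No genome sequence was used here, so the bases around the sites were not examined, and the distance to other CpG sites is the only view of their sequence. Distances were counted along the lower strand. At the low no-call sites another CpG close by toward the 5′ end was rare. In the PAR 1.89% of them had a CpG 2 to 5 bp in that direction and 6.46% in the 3′ direction, beside 11.6% of all sites with enough calls. In the rest the shares were 1.28% and 4.72%, beside 5.82%. In the array they were 19.0% and 44.4%, beside 44.8%. The shortage on the 5′ side was thus seen in each of the 3 places. Sites in copies of a repeat share their spacings, so in the array and in part of the rest they are not separate observations. At the high no-call sites of the PAR, the share was 8.49% toward the 5′ end, also under the 11.6% of all sites but by less, and 11.2% toward the 3′ end.

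The spacings most in excess over all sites were a CpG 6 bp toward the 5′ end, at 4.68% of the strand-asymmetric sites against 3.36%, and a CpG 10 bp toward the 3′ end, at 3.98% against 2.87%. These ratios of 1.39 each became 1.18 when all sites were weighted by the places of the strand-asymmetric sites, with 3.97% and 3.37%. Among low no-call sites of the rest these were 5.21% against 2.25% and 3.85% against 1.88%. In the array they were 16.6% against 8.68% and 15.6% against 9.04%. In both places copies of a repeat count the same spacing more than once. In the PAR the spacing of 6 bp was not in excess, with 3.82% against 4.51%. Within 100 bp, a strand-asymmetric site had a median of 5 other CpG sites in the PAR, 19 in the array and 3 in the rest, against 5, 22 and 3 for all sites with enough calls.

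**Figure D4:**
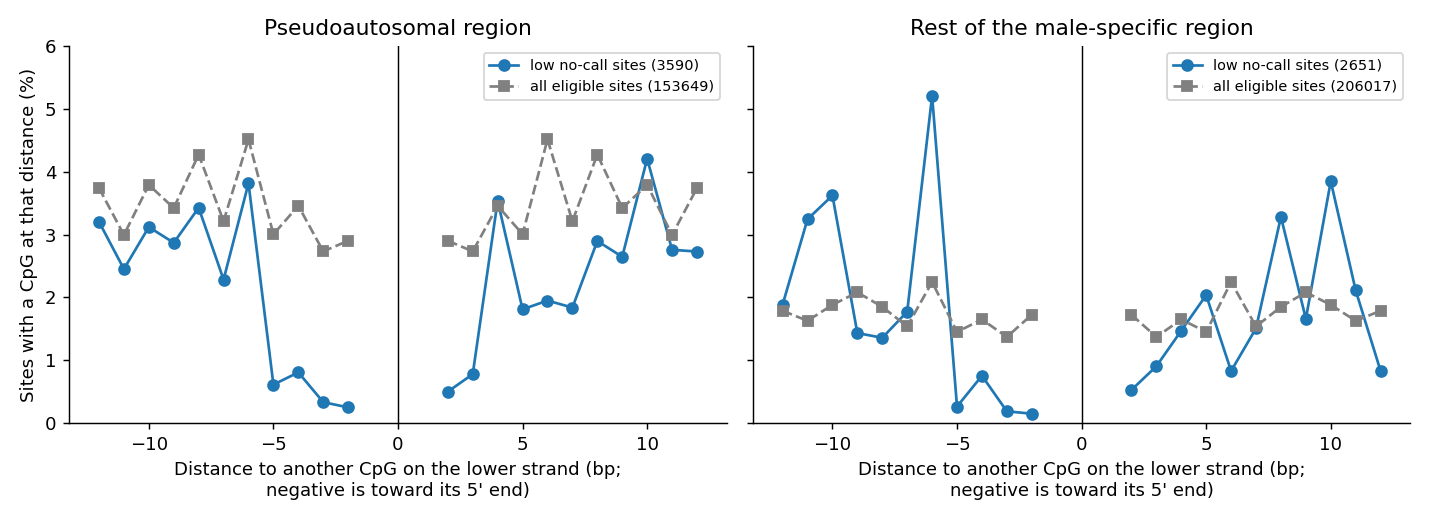
Share of sites in percent (y axis) with another CpG at each distance in bp along the lower strand (x axis, negative toward its 5′ end), for strand-asymmetric sites with a low no-call share (blue) and for all sites with enough calls (grey), in the PAR and the rest. The blue points fall under 1% at 2 to 5 bp on the 5′ side in both places, and in the rest they peak 6 bp toward the 5′ end at 5.21%.

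Repeated sequence of the male-specific region allowed the same site to be followed in its copies. Copies were found as sites whose 5 CpG spacings on each side are the same, in the same or in the inverted order, by a rule chosen after seeing the data. In the rest 1165 of the 2902 strand-asymmetric sites (40.1%) had such a copy with enough calls. For 892 sites with copies in the same orientation, the copies had the same strand higher, by their median, in 885 cases or 99.2%. The copies differed by a median of 31.8 points, where the sites themselves differed by 45.4 points. The sites were chosen for a difference of at least 40 points, and their copies were not. Where sites are copies of each other, each is counted. For 970 sites with inverted copies, the opposite strand was higher in 952 cases or 98.1%, with a median of -31.6 points. For the other sites with copies, the corresponding shares were 66.8% of 68838 and 65.1% of 76599, with medians of 3.78 and -3.57 points. These sites themselves differed by a median of only 8.33 and 8.34 points, so their own direction is less certain, and they are no matched comparison. Low no-call sites made up 878 of the 892 and 952 of the 970 strand-asymmetric sites. The other 14 and 18 were high no-call sites, with medians of 24.3 and -7.40 points at their copies.

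By these counts, the higher strand of the chromosome changed with the orientation of the copy. Copies of such a kind can share reads where an alignment cannot place them uniquely, and the part of this in the values was not tested. At 10157008, the site with the largest excess of the plus strand in the rest, the only copy lies inverted at 9299305. There the level was 17.9% over 28 calls on the plus strand and 83.7% over 43 calls on the minus strand, a difference of -65.9 points against 76.8 points at the site itself. The PacBio levels were 87.8% and 85.8%. The site at 7205396 had no copy by this rule.

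**Figure D5:**
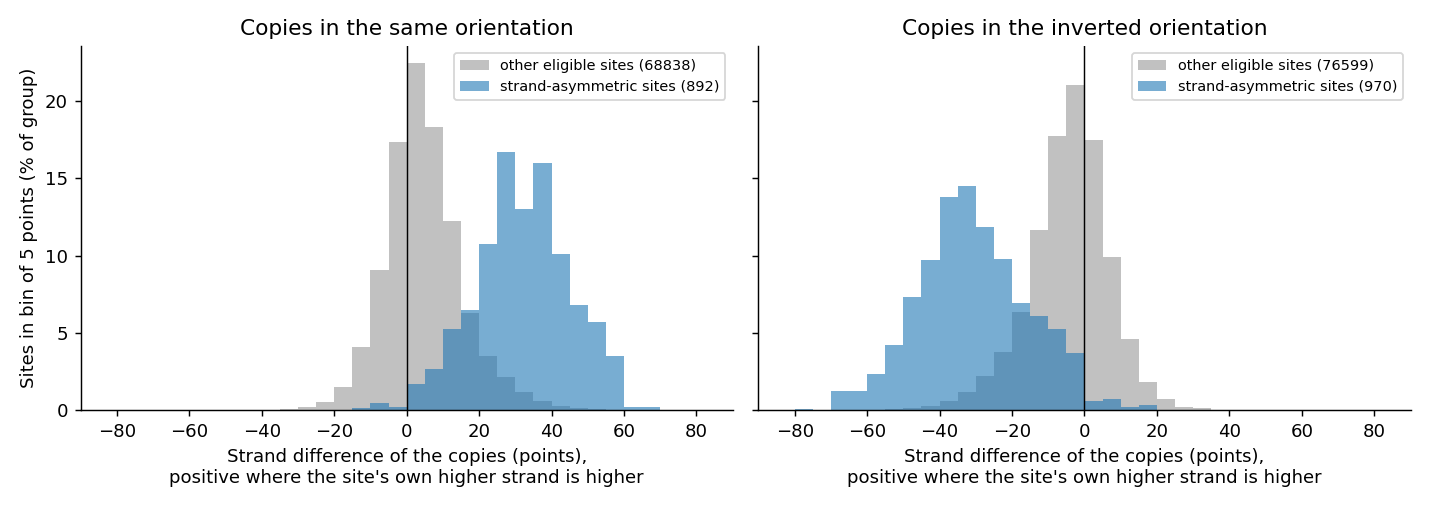
Strand difference in points at the copies of each site of the rest (x axis), signed so that a positive value means that the site's own higher strand is also the higher one in its copies, as the percentage of sites per bin of 5 points (y axis), for copies in the same (left) and the inverted orientation (right). The copies of strand-asymmetric sites (blue) have medians of 31.8 and -31.6 points, and those of the other sites (grey) 3.78 and -3.57 points.

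In the centromeric array, a tandem repeat whose unit measured 2516 bp by its CpG spacing, 201 of the 205 sites had copies within the array, with a median of 38 each. The same strand was higher at the copies of all 201 sites, by their median, with 26.9 points against 43.8 points at the sites themselves. The sites were chosen for a difference of at least 40 points, and their copies were not. All 201 lie in copies of 1 unit, so sites with the same spacings are compared with largely the same copies. They are not 201 separate observations, and such copies can share reads. For the other sites of the array, the same strand was higher at the copies in 71.7% of 9541. At 8052227, the plus strand was higher at all 42 copies within the array, by 1.52 to 44.6 points. At 8072792, the minus strand was higher at all 30 copies within the array, by values from -1.28 to -69.2 points. The medians over these copies were 26.4 and -37.2 points. Another 1 and 2 copies by CpG spacing lay outside the array, where the PacBio level was 5.90% to 7.10%, with the same direction. Exactly 1 unit away, 15.6% of the sites met another strand-asymmetric site, against 1.24% of the other sites of the array, and in all 18 such pairs the same strand was higher. No gene is annotated in the array.

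In the PAR 44.4% of the strand-asymmetric sites lay in gene bodies, against 46.2% of all sites with enough calls. In the rest 24.0% of the strand-asymmetric sites lay in gene bodies against 17.3% of all sites with enough calls. SHROOM2 held 200 of these 696 sites, and without it the shares were 18.4% and 16.1%. Within 500 bp of annotated gene starts, 43 of 3846 sites (1.12%) were strand-asymmetric in the PAR and 49 of 4218 (1.16%) in the rest. In the PAR this was under the frequency of the whole region. Of 301 annotated genes, 167 had a strand-asymmetric site in the body and 68 within 500 bp of the start. These counts of genes depend on how many sites each gene holds, and no expected count was computed. Genes that overlap share sites.

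The genes with most sites were long genes of the PAR. PRB3 (LOC132657141, 5379157 to 5822358) held 472 among 8828 sites, or 5.35%. NLGN4X, which encodes a synaptic adhesion protein, held 313 or 4.24%, and TBL1X, whose product belongs to a transcriptional corepressor complex, held 272 or 4.20%. DHRSX, of the short-chain dehydrogenase family, held 258 or 6.40%, and STS, which encodes steroid sulfatase, held 249 or 4.97%. These frequencies were 4.20% to 6.40%, beside the 4.81% of the PAR, and none of these genes had a strand-asymmetric site within 500 bp of its start.

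Near gene starts the counts were small. The long non-coding RNA genes LOC121818231, from 780087 to 783684, and LOC105605322, from 2055359 to 2183776, had 6 sites each within 500 bp of their start, of 53 and 22 sites. SF3A2 (LOC106990378), annotated as a splicing factor gene, and RIC1-RGP1 (LOC132658879) share a start and its 4 sites of 20. LOC132659051, LOC132658956 and a gene annotated as CSF2RA, a cytokine receptor subunit, had 3 each, of 44, 41 and 50 sites. A second gene annotated as CSF2RA, LOC121818233 and LOC132658844 had 2 each, of 38, 27 and 23 sites. All of these genes lie in the PAR, where 1.12% of the 3846 sites near gene starts were strand-asymmetric. They are named because they had the most such sites.

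Genes kept from the ancestral sex chromosome pair, the X-degenerate genes, were set beside the ampliconic families that were multiplied on the Y-chromosome. A list of X-degenerate gene names, which does not cover the whole class, matched 15 genes and pseudogenes of the male-specific region. TBL1X, also on that list, lies in the PAR and was left out. The 15 genes held 330 strand-asymmetric sites, 4.43% of their 7447 sites. SHROOM2, whose product binds actin and shapes epithelial cells, held 200. The other 14 genes together held 130 of 4632, or 2.81%. KDM6A (a histone demethylase), the longer copy of USP9X (a deubiquitinase) and ZFY (a zinc finger protein) had 2.84%, 3.28% and 3.57%. The shorter copy of USP9X had 3 of only 43 sites, or 6.98%. DDX3X, an RNA helicase gene, had 1.85%, and the 6 copies of EIF1AX and UBA1, which are annotated as pseudogenes, together had 6 of 693 sites or 0.866%. The ampliconic families had 1.33% of 17186 sites in 76 TSPY copies, 1.13% in 26 HSFY copies, 1.68% in 6 PRAME copies, 1.15% in 22 ZNF280A copies and 0.931% in 42 ZNF280B copies, beside the 1.41% of all sites of the rest. The single RBMY gene had none among 51 sites, which allows a share of up to 5.88% by counting error alone.

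SHROOM2 had the highest frequency of the 15 genes, and it was looked at in detail after this value was seen. The gene (LOC132657142) lies on the minus strand from 8574919 to 8715993. Of its 2815 sites, 7.10% were strand-asymmetric, against 1.33% of the other 203202 sites of the rest. It held 150 of the 251 high no-call sites of the rest, or 59.8%. At these, the median level was 84.2% on the higher strand and 34.2% on the lower strand, the no-call share was 48.9% and 9.50%, and the PacBio median was 54.9%. These values are close to those of the high no-call sites of the PAR.

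Over SHROOM2 the median number of ONT reads was 105 on the plus strand and 97 on the minus strand, against 57 and 58 elsewhere in the rest, and near the 112 and 113 of the PAR. In windows of 50 kb the frequency of strand-asymmetric sites was 8.80% from 8650001 to 8700000, where the depth was 127 and 107 reads, and 1.04% in the next window, with 69 and 62 reads. These windows also differed in their level, with a PacBio median of 87.6% in the first and 11.7% in the second. The 3 windows from 8400001 to 8550000, with PacBio medians of 90.5% to 94.7% and depths of 57 to 67 reads per strand, had 5.23%, 2.54% and 3.42%. The other deeper windows, from 8550001 to 8600000 and from 8600001 to 8650000, had 5.90% with 103 and 96 reads and 6.42% with 96 and 87 reads. The part of depth and level in the frequency was not tested. Without SHROOM2, 1.33% of the sites of the rest were strand-asymmetric in place of 1.41%.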

How the data were processed

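For ONT, the authors called bases and methylation with Dorado, used Winnowmap for alignment, with a later filter not given in the sources used here, and deposited per strand the count of reads, of methylated and unmethylated calls, and of calls between the modbam2bed thresholds of 20% and 80%. The deposited ONT percentage equals methylated calls over methylated and unmethylated calls, and the deposited score equals valid calls per 1000 reads. Both were used only to check the layout. For PacBio, the authors deposited a modelled percentage per CpG from pb-CpG-tools, after Primrose and pbmm2, with read counts and estimated counts of modified reads.

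Strand records 1 bp apart were paired. Sites needed 20 calls on each strand. No p-value was taken, since there was 1 animal, sites were chosen on the difference itself, and neighbouring sites share reads. Wilson intervals cover counting error only, and the limit for a count of 0 is 3 counts of the total. The members, lists and rules were chosen with earlier results of these data known. Chosen after seeing the files were the no-call and between shares of 30% that divide the sites, copies by CpG spacing, the SHROOM2 stretch and the minimum of 50 calls. Named sites were the 10 largest differences, the largest per place and direction, 3 on each side of the limit and the largest cluster at 100 bp. Named spacings were the 2 with the highest ratio to all sites, and named genes were those with most sites near the start (up to 10) or in the body (5). Genes, with their strand, came from the study's list of 301, of which 241 matched a RefSeq gene of ARS-UI_Ramb_v3.0 by start and end. Counting steps were tested on simulated data. Alternatives varied the minimum of calls, the limit of the difference, the treatment of calls between thresholds, the places, the distance, the PacBio measure, the repeat lag and the copy rule. Python 3.11.15, NumPy 2.4.6, pandas 2.3.3, SciPy 1.17.1 and matplotlib 3.10.9 were used.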

Additional observations from a re-analysis of the deposited data

How the results depend on the processing

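No paired analysis was possible because there was 1 animal and no test between groups was made. Of 89 values under an alternative, 34 stayed within 1.5 times the count or within the interval or spread of the main value, and 55 moved. The cause was not tested beyond what the setting itself does.

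Calls between the thresholds, counted as not methylated, gave 16120 sites (4.36%), 49.8% with the plus strand higher, which is almost an even split. Of these sites 64.5% lay in the PAR and 1.29% in the array. Their between shares were 40.8% and 8.65% on the lower and higher strand, and their mean PacBio level was 79.3%. Counted as methylated, the calls between the thresholds gave 4360 sites (1.18%), with 54.7%, 80.2% and 0.826%. The between shares were 7.07% and 14.3%, with a mean PacBio level of 48.8%, so that the larger between share lay on the higher strand. The main values are 10503 sites (2.84%), 51.9%, 70.4%, 1.95%, 29.4%, 10.9% and 69.4%.

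A limit of 30 points gave 24254 sites (6.56%), 58.8% of them in the PAR and 2.95% in the array. A limit of 50 points gave 3884 sites (1.05%), with 53.5% plus higher, 77.6% in the PAR, 0.927% in the array and 3.86% with a CpG 6 bp toward the 5′ end of the lower strand, where the main value is 4.68%. At that limit the spacing with the highest ratio was 10 bp, at 3.55%. With a minimum of 10 calls per strand, 2.91% of sites were strand-asymmetric, 68.3% of them in the PAR and 3.08% in the array. With 30 calls, the values were 2.65%, 81.0% and 0.255%. With 50 calls, they were 3998 sites (2.44%), 50.6% plus higher, 96.9% in the PAR and 0% in the array, with a between share of 9.84% on the higher strand and a mean PacBio level of 73.7%. Without the array, 71.8% lay in the PAR. Without the PAR, 3107 sites remained (1.44%), with 53.1% plus higher and 6.60% in the array.

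Within 50 bp 16.1% had a companion, and within 500 bp 60.8%, in place of 25.2%, with the same strand higher in 68.5% and 59.1% of pairs in place of 65.5%. Within 2 bp of a repeat unit, 30.2% of array sites met another, in place of 15.6%. A no-call limit of 20% gave 54.1% high no-call sites in the PAR and 40% gave 50.01%, in place of 51.5%. Without SHROOM2 the frequency in the rest was 1.33%, and 18.4% of the sites there lay in gene bodies in place of 24.0%. Weighting all sites by place gave 1.18 in place of 1.39 for the ratios of both spacings. Copies with 3 or 8 spacings gave between 97.83% and 99.3% of cases, near the main values. At 50 calls per strand 1 site had a copy in each orientation. The settings of 50 calls, of 20% and 40%, of 3 and 8 spacings, of the weighting and without SHROOM2 were chosen after seeing the data.

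Depth limits single sites most in the array, where no site had 50 calls on both strands. The file does not tell another base from a deletion or a missing call.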
